A study of Danio rerio with 6 samples.

Results

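The splicing factor transcripts of zebrafish zygotes were compared between RNA precipitated with Tdrd6a and input RNA. The genes were chosen by symbol: SR proteins and the related Tra2 proteins, hnRNPs, the snRNP proteins with Lsm2 to Lsm8, SF3A and SF3B subunits, the PRPF factors, and U2AF, SF1 and Rbm8. Of the 21051 genes in the table, 83 had such a symbol. A mean of at least 10 normalized counts over the 6 libraries was reached by 81 of these 83, and by 13265 genes in all. The lowest mean among the 81 belonged to lsm6, which had 10.4, 11.3 and 3.6 normalized counts in Tdrd6a IP replicates 1, 2 and 3 and 11.2, 66.9 and 16.4 in input replicates 1, 2 and 3. Below the minimum were hnrnpa3, with 3.5, 22.6 and 1.2 in IP and 0, 0 and 0.7 in input, and a second row with the symbol sf3b3, with at most 2.4 in any library. These 2 genes were not tested.

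There were 3 Tdrd6a_IP libraries, made from RNA that was immunoprecipitated with Tdrd6a, and 3 Input libraries. The labels give Zebrafish Zygotes as the source of all 6 and name no strain, age, mutation or treatment. The design text of the series speaks instead of ovary tissue or of RIP experiments; the sample labels were followed here, and follicle cell markers are given below. Tdrd6a carries Tudor domains, which bind methylated arginines, and sits in the germ plasm, the maternal substance that future germ cells inherit. Nothing in the labels ties the replicates to separate clutches, and the p-values therefore speak only of library-to-library spread, part of which may be technical. No mock or unrelated antibody library was analysed here.

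Splicing removes introns in the spliceosome, which is built on each transcript from small nuclear ribonucleoproteins (snRNPs). The U1 snRNP pairs with the start of the intron, SF1 and U2AF mark its branch point and end, and the U2 snRNP, with its SF3A and SF3B parts, then takes the branch point. The tri-snRNP of U4, U6 and U5 completes the complex, and SR proteins and hnRNPs decide which sites are used. The embryo's own genome is silent in the zygote, and the transcripts measured here are maternal messages for these proteins, not the splicing reaction itself.

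The libraries held 4031863 to 22466764 recovered reads, and Tdrd6a IP replicate 2 was the shallowest, with 1 read worth 3.76 normalized counts. A tested splicing factor gene had a median of 96 reads in that library, against 244 to 678 in the other 5, so its values there carry the largest counting error. All 6 egg markers looked for were present, with summed levels of 70431.8 to 352453.8 normalized counts in IP libraries and 17001.3 to 20550.2 in input libraries. That gap is dazl, with 180736.6, 337628.8 and 57386.2 in IP and 2340.3, 2200.9 and 1696.4 in input; the other 5 summed to 13045.6 to 14825 in IP and 14800.4 to 18209.9 in input. The part of dazl in the results was not tested. Of 8 names of ovarian follicle cell markers 6 were found, whose summed level was 18.8 to 41.3 normalized counts in IP libraries and 9.5 to 38.9 in input libraries; cyp19a1a and lhcgr were at 0 in every library. The 3 markers of the zygotic genome that were found, of 5, summed to at most 4.9 in IP and at most 5.5 in input. As in any bulk library, fewer cells of a type and less RNA per cell cannot be told apart.

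Most splicing factor transcripts had lower values in the Tdrd6a IP than in input. Of the 81 tested genes 15 were lower in IP, 3 were higher and 63 were not called at an adjusted p under 0.05. The lower calls made up 18.5% of these genes, against 1.86% of all genes tested, and the higher calls 3.70%, against 4.46% of all genes. The higher share was not above that of all genes, so the higher genes named below are single calls. Estimates lay below 0 for 64 of the 81 genes, 79.0%, against 50.4% of all genes. In 41 genes, 50.6%, the highest IP value was below the lowest input value, against 12.9% of all genes, and in 7 genes, 8.64%, the lowest IP value was above the highest input value, against 14.6%. The median log2 fold change was -0.67, against -0.01 over all genes tested. Splicing factor genes had more counts than the average gene, with a median of 454.7 mean normalized counts against 226.6. Among the 8741 genes with a mean of at least 100 normalized counts, 2.63% were lower and 6.44% higher. All 15 lower genes differed by at least 2-fold.

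**Figure D1:**
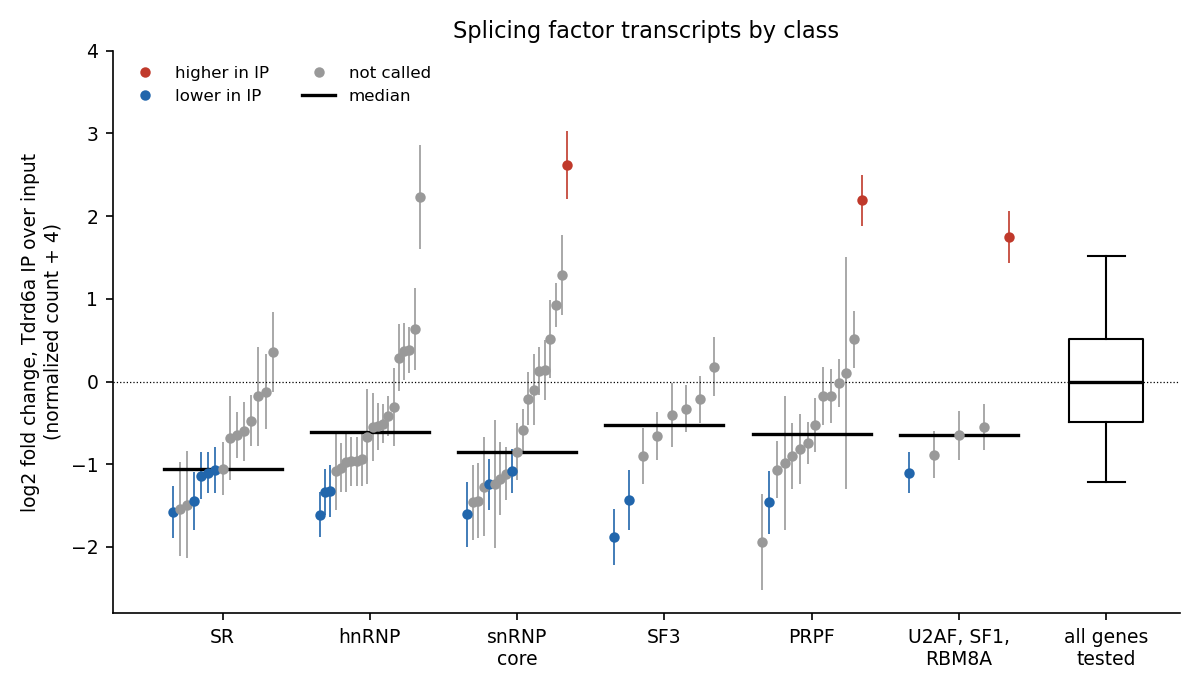
Log2 fold change of Tdrd6a IP over input (log2 of normalized count + 4) for the 81 tested splicing factor genes, by class; points are genes, bars are standard errors, horizontal lines are class medians. The box at the right shows the quartiles of all genes tested, with whiskers at percentiles 5 and 95. Class medians lie between -1.05 and -0.53, and the 3 genes called higher, in red, each stand alone at the top of their class.

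The counts depended on which libraries entered. Without IP replicate 1, 2 or 3, the number of lower splicing factor genes was 2, 30 and 7, against 0.452%, 4.12% and 1.30% of all genes; without input replicate 1, 2 or 3 it was 1, 1 and 0, against 0.173%, 0.256% and 0.0754%. Without IP replicate 1, 2 or 3 the higher genes numbered 2, 4 and 3, against 2.04%, 8.93% and 4.79% of all genes, and without input replicate 1, 2 or 3 they numbered 2, 3 and 2, against 1.28%, 1.80% and 1.42%. Leaving out any library but IP replicate 2 thus lost most of the lower calls, and leaving out any library lost at most 1 of the higher. Of the 15 lower genes hnrnpc and sf3b5 kept their call in 4 of the 6 fits with a library left out, and the other 13 in 1 or 2 of them. Replicate numbers may pair the libraries. With the number as a block in the fit, 21 of the splicing factor genes were lower and 5 higher, against 3.52% and 6.97% of all genes. All 18 of the calls above were kept. DESeq2, run on recovered reads, called 26 lower and 5 higher, against 4.3% and 8.0% of all genes, and edgeR with the block 23 and 5, against 3.38% and 6.02%. With all genes of at least 1 read tested, 4 were lower and 3 higher, against 0.518% and 2.05%.

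Of the 3 higher genes, the 2 most increased encode proteins of the U5 snRNP, the particle that holds the exon ends during catalysis. The transcript of snrnp40 (ENSDARG00000023160), which encodes its WD repeat protein, had 5110.8, 2684.5 and 1817 normalized counts in Tdrd6a IP replicates 1, 2 and 3, against 725.2, 402.8 and 360.7 in input replicates 1, 2 and 3. Replicate 1 was the highest library in both groups, and the groups did not overlap. The log2 fold change was 2.62 ± 0.41 (SE, adjusted p = 0.00574), a 6.14-fold difference and the largest increase of the 81 genes. For prpf8 (ENSDARG00000026180), which encodes the scaffold at the catalytic centre of the spliceosome, the values were 33228.8, 16637.1 and 21435.5 in IP and 4874.4, 5516.9 and 4616.6 in input. The 3 input libraries lay close together, and every IP library was at least 3 times the highest of them. The difference was 4.57-fold (2.19 ± 0.31, adjusted p = 0.00309). These 2 genes were called with each library left out in turn.

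Another U5 protein, the helicase Snrnp200 that unwinds U4 from U6, is listed under the clone name si:ch211-251j10.5 and so falls outside the symbol pattern; it was looked up, with the other U5 proteins, after these values were seen. It had 5025.4, 3331.2 and 3345.6 normalized counts in IP and 938.1, 1431.2 and 1252.5 in input, again without overlap, and rose 3.21-fold (1.68 ± 0.28, adjusted p = 0.00765). Its call was lost without input replicate 1 (adjusted p = 0.0661) or input replicate 3 (adjusted p = 0.0535). The other U5 proteins did not pass the test. The GTPase gene eftud2 was at 0.54 ± 0.27 (adjusted p = 0.275) and txnl4a at 0.51 ± 0.36 (adjusted p = 0.466). On the other side of 0 were ddx23, a helicase (-0.54 ± 0.31, adjusted p = 0.355), cd2bp2, a protein of the free U5 particle (-0.93 ± 0.38, adjusted p = 0.181), and prpf6, which joins U5 to U4 and U6 (-1.07 ± 0.34, adjusted p = 0.0957). Every IP library was above input in txnl4a and below it in cd2bp2 and prpf6, while eftud2 and ddx23 overlapped. So of the 8 genes of the U5 particle limma called 3 higher, 0 lower and 5 neither way, against 4.46% higher and 1.86% lower of all genes, and nothing is read from that count, since the list was drawn up once prpf8 and snrnp40 had been seen. DESeq2 (adjusted p = 0.0307) and edgeR with the block (adjusted p = 0.0496) called prpf6 lower.

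**Figure D2:**
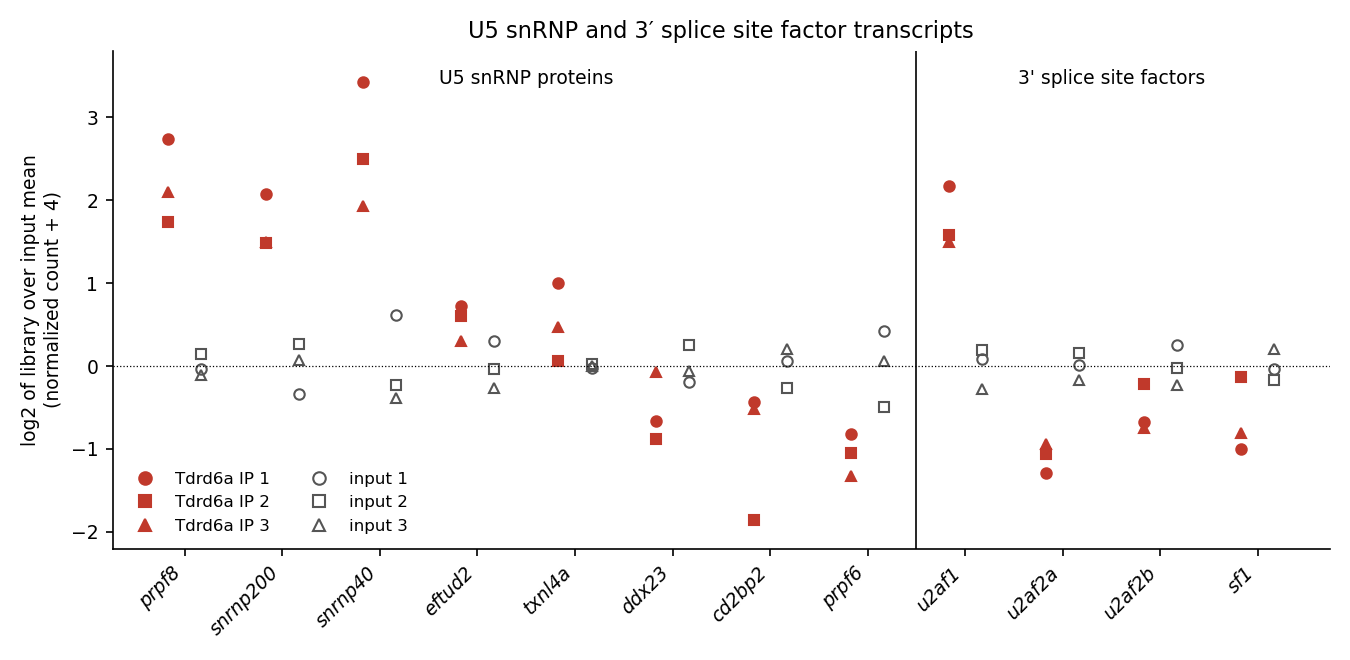
Log2 of each library over the input mean (normalized count + 4) for the 8 U5 snRNP protein genes and for 4 genes of 3′ splice site recognition; filled red symbols are Tdrd6a IP libraries, open grey symbols are input libraries, and the symbol shape gives the replicate number. For prpf8, snrnp200, snrnp40, txnl4a and u2af1 every IP library is above every input library, while u2af2a, cd2bp2 and prpf6 have all IP libraries below input. The groups overlap in the other genes shown.

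The genes that recognise the end of the intron went apart. The transcript of u2af1 (ENSDARG00000015325), the small U2AF subunit, which reads the AG at the 3′ splice site, had 923.6, 612.8 and 577.9 normalized counts in IP and 215.2, 232.3 and 166.4 in input. Every IP library was well above input, and the difference was 3.35-fold (1.75 ± 0.31, adjusted p = 0.01). The transcript of its partner u2af2a (ENSDARG00000012505), the large subunit, which binds the pyrimidine tract, had 565, 661.7 and 719.1 in IP and 1398.8, 1545.9 and 1238.2 in input. It fell 2.14-fold (-1.10 ± 0.25, adjusted p = 0.0277), and here every IP library was below input. The log2 ratio of u2af1 to u2af2a was 0.71, -0.11 and -0.31 in IP replicates 1, 2 and 3 and -2.68, -2.71 and -2.87 in input replicates 1, 2 and 3. IP exceeded input by 2.85 ± 0.32 (SE, n = 3 each). A two-sided exact permutation test, with the libraries taken as unpaired, gave p = 0.1, and 0.25 after adjustment over the 5 gene pairs compared. No arrangement of 3 against 3 can undercut 0.1. The 2 genes had already been called in opposite directions without overlap, so their ratio had to separate the groups. This p was thus fixed before the test, and nothing is read from it. The other copy of the large subunit, u2af2b, was at -0.55 ± 0.28 (adjusted p = 0.3), and sf1, the branch point binding protein, at -0.65 ± 0.29 (adjusted p = 0.233); both overlapped between groups. The transcript of rbm8a, a core protein of the exon junction complex left on spliced messages, was at -0.88 ± 0.28 (adjusted p = 0.0951), with 271, 353.4 and 347.5 in IP and 696, 500.6 and 609.5 in input. DESeq2 called rbm8a lower (adjusted p = 0.0398). Without IP replicate 1, input replicate 1 or input replicate 3, u2af1 missed the threshold (adjusted p = 0.0536, 0.0539 and 0.0612), and u2af2a missed it without IP replicate 1 (adjusted p = 0.0926) or any input library.

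SR protein transcripts had the lowest class median. Of 15 genes 5 were lower, 0 higher and 10 not called, against 1.86% lower and 4.46% higher of all genes. The estimates ran from -1.58 to 0.36, and the median was -1.05. Of these estimates 14 lay below 0, against 50.4% of all genes. Without IP replicate 1, 2 or 3 the lower SR genes numbered 0, 8 and 1, against 0.452%, 4.12% and 1.30% of all genes. Without input replicate 1, 2 or 3 they numbered 0, 0 and 0, against 0.173%, 0.256% and 0.0754%. The strongest was srsf1a (ENSDARG00000057691), which encodes a founding SR protein and had 651.2, 1237 and 569.5 normalized counts in IP and 2126.2, 2528 and 2307.9 in input. Although IP replicate 2 stood well above the other IP libraries, all 3 were far below input, and the gene fell 2.99-fold (-1.58 ± 0.32, adjusted p = 0.0169). The transcript of srsf3b, for the smallest SR protein, had 395.4, 586.5 and 246.1 in IP and 1321.4, 1063.7 and 831.8 in input (-1.44 ± 0.35, adjusted p = 0.0352). The gene srsf11, for another protein with an SR domain, had 698.5, 932.4 and 557.4 in IP and 1704.8, 1710.6 and 1334.3 in input (-1.14 ± 0.28, adjusted p = 0.0367). The closely spaced values of srsf4 were 541.4, 496.3 and 515.2 in IP and 1282.2, 1096 and 983.2 in input (-1.10 ± 0.25, adjusted p = 0.0277). For srsf6a, which like srsf4 encodes a long SR protein with a pair of RNA-binding domains, they were 1269, 1549 and 921.8 in IP and 2145.2, 2714 and 2905.2 in input (-1.07 ± 0.28, adjusted p = 0.0474). These 5 genes had no overlap between groups, and in 4 of them, all but srsf4, IP replicate 2 was the highest IP library and IP replicate 3 the lowest.

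Zebrafish carry many SR genes in 2 copies. The copies srsf1b, srsf3a and srsf6b were taken because their partners were called, so nothing is read from their lack of a call. Their input means were 306, 166.9 and 168.9 normalized counts, against 2321, 1072 and 2588 for srsf1a, srsf3b and srsf6a. The transcript of srsf1b had 287, 635.4 and 96.5 normalized counts in IP and 411.3, 283.7 and 223 in input, spread across both sides (-0.18 ± 0.60, adjusted p = 0.906). The log2 ratio of srsf1a to srsf1b differed by -1.40 ± 0.57 between IP and input (two-sided exact permutation p = 0.2, and 0.25 adjusted over the 5 pairs, n = 3 each). The test took the libraries as unpaired and could give no p under 0.1, so it cannot tell whether the copies differ. Within replicates 1, 2 and 3 the difference was -1.19, -2.18 and -0.84, each below 0, which was not tested. For srsf3a the values were 66, 67.7 and 24.1 in IP and 279.1, 142.6 and 79.1 in input, with replicate 3 the lowest in both groups, and the estimate, -1.54 ± 0.57 (adjusted p = 0.141), was close to that of srsf3b. It was called with the replicate block (adjusted p = 0.0373), as was srsf9 (-1.49, adjusted p = 0.0474). The copy srsf6b was at -0.60 ± 0.35 (adjusted p = 0.375) and srsf2b, the highest of the class, at 0.36 ± 0.48 (adjusted p = 0.734). Of the Tra2 proteins, which activate exons through enhancers, tra2b had 198.1, 270.7 and 197.9 in IP and 635.5, 387.4 and 395.5 in input (-1.05 ± 0.33, adjusted p = 0.0822), while tra2a was at -0.12 ± 0.45. DESeq2 (adjusted p = 0.023) and limma without IP replicate 2 (adjusted p = 0.0314) called tra2b lower. A further SR gene that the names table gives as srsf7a, listed as zgc:77155 and looked up after the values were seen, had 1162, 2034 and 652.7 in IP and 3704.3, 3435.8 and 3236.6 in input (-1.58 ± 0.37, adjusted p = 0.032), a call lost without IP replicate 1 (adjusted p = 0.11) or any input library (adjusted p of 0.117 to 0.137). In all, 12 tested genes fit the symbol pattern only by their name in that table. Of these 2 were higher (snrnp200 and prp19), 2 lower (srsf7a and hnrnpa1a) and 8 not called. Of all genes 4.46% were higher and 1.86% lower. Among the 8 not called 3 lay above 0 and 5 below. The Lsm genes lsm3 (-1.04, adjusted p = 0.316) and lsm5 (-0.80, adjusted p = 0.253) were among the 5. The largest of the 3 was lsm2, listed as smx5, for a protein of the U6 Lsm ring, with 822.2, 1443.8 and 240.1 in IP and 177.1, 115.4 and 128.9 in input (2.22 ± 0.57, adjusted p = 0.0518, and 0.013 with the replicate block and 0.0263 with edgeR).

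**Figure D3:**
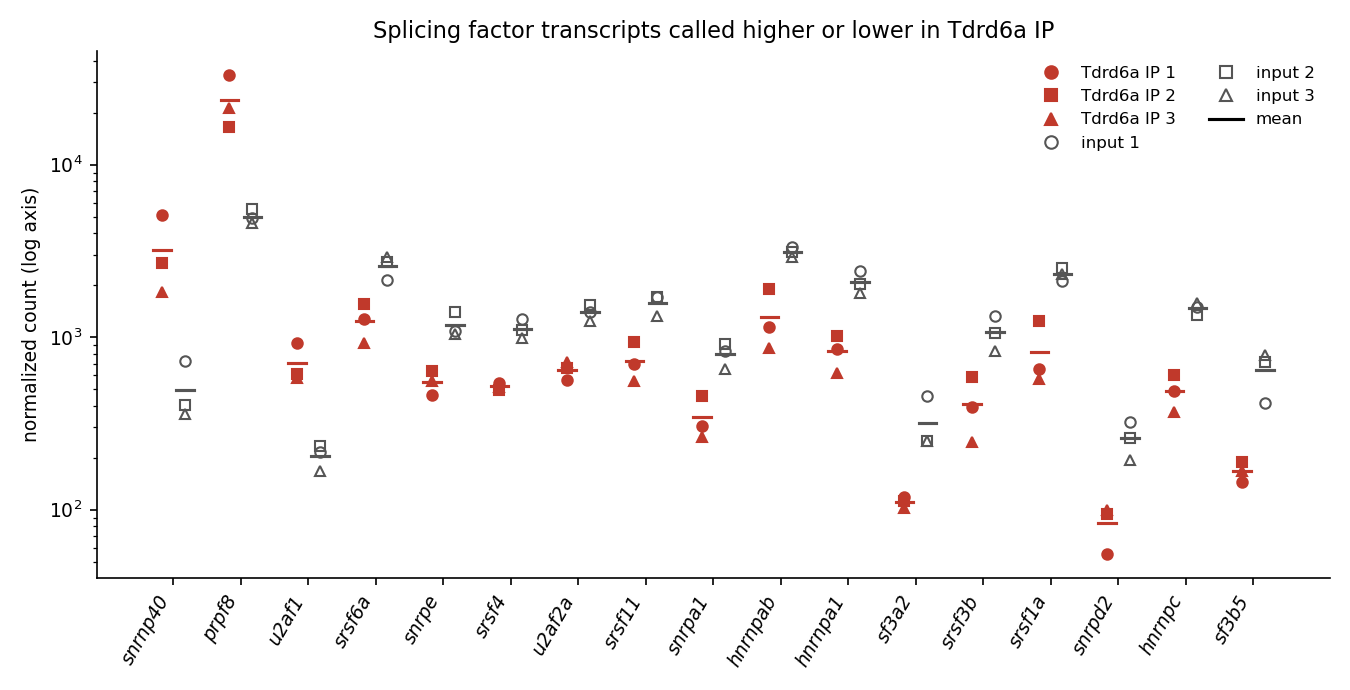
Normalized counts (log axis) of 17 of the 18 splicing factor genes called in the comparison, ordered by fold change; filled red symbols are the 3 Tdrd6a IP libraries, open grey symbols the 3 input libraries, shapes give the replicate number and short lines are means. The groups do not overlap in any of these genes, with IP above input for snrnp40, prpf8 and u2af1 and below it for the other 14.

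Among hnRNP genes, whose products coat nascent transcripts and often silence exons, 3 of 20 tested were lower, 0 higher and 17 not called. Of all genes 1.86% were lower and 4.46% higher. The median was -0.61, and 15 estimates lay below 0, against 50.4% of all genes. Without IP replicate 1, 2 or 3 the lower hnRNP genes numbered 1, 7 and 2, against 0.452%, 4.12% and 1.30% of all genes. Without input replicate 1, 2 or 3 they numbered 0, 1 and 0, against 0.173%, 0.256% and 0.0754%. The transcript of hnrnpc (ENSDARG00000053810), which encodes a binder of uridine tracts, had 488.6, 601.6 and 368 normalized counts in IP and 1494.1, 1334.9 and 1572.3 in input. It fell 3.05-fold (-1.61 ± 0.27, adjusted p = 0.00783), and missed the threshold only without input replicate 1 (adjusted p = 0.0573) or input replicate 3 (adjusted p = 0.0588). For hnrnpa1, the archetype of exon silencers, the values were 849.3, 1015.1 and 622.5 in IP and 2406.4, 2025.2 and 1795.2 in input (-1.34 ± 0.28, adjusted p = 0.0187). The transcript of hnrnpab had 1144.6, 1910 and 866.3 in IP and 3319.9, 3098.4 and 2910.7 in input (-1.32 ± 0.31, adjusted p = 0.0305). A related gene, named hnrnpa1a in the names table and listed as zgc:66127, had 599.1, 1090.3 and 579.1 in IP and 2298.8, 1984 and 2610.7 in input (-1.65 ± 0.30, adjusted p = 0.011); it was looked up after the values were seen, and its call was lost without input replicate 1 (adjusted p = 0.0705) or input replicate 3 (adjusted p = 0.0766).

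With all libraries and no block, limma did not call the other 17 hnRNP genes tested. The nuclear scaffold gene hnrnpub, with 2964.1, 2752.2 and 2801.4 normalized counts in IP and 4004.7, 3544.6 and 3852.9 in input, was separated between groups but differed little (-0.42 ± 0.24, adjusted p = 0.356). The main row of hnrnpa0l (ENSDARG00000036161) had 2351.8, 3793.6 and 2026.9 in IP and 6087.2, 5183.2 and 4984.1 in input (-1.04 ± 0.29, adjusted p = 0.0626), all IP values below input. DESeq2 (adjusted p = 0.0155), voom (adjusted p = 0.0436) and limma without IP replicate 2 (adjusted p = 0.00299) called it lower. So did limma with scaling by library size alone (adjusted p = 0.0226). A second row with the symbol hnrnpa0l, ENSDARG00000076380, is gzf1 in the names table and was at 0.64 ± 0.50. At the top stood hnrnph1, for a binder of G tracts, with 200.8, 90.2 and 63.9 in IP and 34.7, 24.3 and 7.5 in input. All IP libraries were above input, yet these low values spread widely, and the estimate of 2.23 ± 0.63 was not called (adjusted p = 0.0612) except with the replicate block (adjusted p = 0.0131), DESeq2 (adjusted p = 0.00743), edgeR with the block (adjusted p = 0.0152) or without IP replicate 2 (adjusted p = 0.0499). Its relative hnrnph1l was at -0.97 ± 0.29 (adjusted p = 0.0761), with 380.2, 391 and 313.7 in IP and 928, 567.5 and 670.9 in input, all IP values below input. DESeq2 (adjusted p = 0.0215) and limma without IP replicate 2 (adjusted p = 0.039) called hnrnph1l lower. So did limma with scaling by library size alone, and edgeR with the block. The 12 other hnRNP genes tested, such as hnrnpk (-0.54 ± 0.28), hnrnpm (-0.97 ± 0.30, adjusted p = 0.0825) and hnrnpl2 (0.39 ± 0.28), ran from -1.09 to 0.39, and limma called none of them. DESeq2 called hnrnpm lower (adjusted p = 0.0282), and without IP replicate 2 limma called hnrnpm (adjusted p = 0.025) and hnrpdl (adjusted p = 0.0481).

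Of the 19 snRNP core genes 3 were lower, 1 (snrnp40) higher and 15 not called, with a median of -0.85. Of all genes 1.86% were lower and 4.46% higher. The 3 lower calls became 0, 8 and 1 without IP replicate 1, 2 or 3, against 0.452%, 4.12% and 1.30% of all genes. They became 0 without any 1 input library, against 0.0754% to 0.256% of all genes. The lower genes encode parts of the Sm ring, the protein ring around the snRNAs, and of U2. For snrpd2 (ENSDARG00000040440), an Sm protein, the values were 55.6, 94 and 100.1 normalized counts in IP and 322.8, 259.5 and 195 in input. It fell 3.04-fold (-1.61 ± 0.39, adjusted p = 0.0362). Another Sm gene, snrpe, had 460.1, 635.4 and 556.2 in IP and 1082.7, 1390.1 and 1041.8 in input (-1.08 ± 0.27, adjusted p = 0.0367). The U2 protein gene snrpa1 had 303.7, 458.7 and 265.4 in IP and 832.8, 916.7 and 654.5 in input (-1.24 ± 0.31, adjusted p = 0.0366). Other Sm genes were mixed: snrpd3 was at -1.44 ± 0.45 (adjusted p = 0.0863, and 0.0203 with the replicate block), snrpb at -0.21 ± 0.32 and snrpd1 at 0.14 ± 0.36.

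The proteins of the U1 snRNP did not share a direction. The transcript of snrnp70, the U1 protein that meets SR proteins at the 5′ splice site, had 1135.6, 1233.2 and 918.1 normalized counts in IP and 678.1, 465.3 and 589.8 in input, all IP values above input (0.93 ± 0.27, adjusted p = 0.0688). DESeq2 called snrnp70 higher (adjusted p = 0.0308). In snrpc, another U1 protein gene, all IP values were below input, with 125.8, 203 and 173.7 in IP and 367.6, 321.2 and 396.1 in input (-1.11 ± 0.32, adjusted p = 0.068, and 0.049 with the block). The U1 gene snrpa was at -0.85 ± 0.35 (adjusted p = 0.187) and the U2 gene snrpb2 at -0.59 ± 0.26 (adjusted p = 0.226). Among the Lsm genes, whose ring holds the end of U6, lsm4 was at -1.46 ± 0.45 (adjusted p = 0.0841, and 0.0176 with the block), and lsm7 at 1.29 ± 0.48 (adjusted p = 0.147, and 0.0263 with the block). The values of lsm7 were 327.3, 857.2 and 294.4 in IP and 202.9, 261 and 102.3 in input, so the IP libraries lay above input and IP replicate 2 highest. Neither lsm6 (-1.24 ± 0.78) nor lsm8 (-1.27 ± 0.60) was called, and in both input replicate 2 stood apart, with 66.9 against 11.2 and 16.4 in the other input libraries for lsm6 and 179.4 against 61.6 and 41.6 for lsm8. The minor spliceosome genes snrnp35 and snrnp48 were at 0.13 ± 0.29 and 0.51 ± 0.47.

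Of the SF3 genes, whose products hold the branch point in the U2 snRNP, 2 of 8 tested were lower, 0 higher and 6 not called. Their median was -0.53. Of all genes 1.86% were lower and 4.46% higher. The 2 lower calls became 1, 3 and 1 without IP replicate 1, 2 or 3, against 0.452%, 4.12% and 1.30% of all genes. Without input replicate 1, 2 or 3 they became 1, 0 and 0, against 0.173%, 0.256% and 0.0754%. The transcript of sf3b5 (ENSDARG00000016855), a small SF3B subunit, had 143.9, 188 and 167.7 normalized counts in IP and 413.6, 721.1 and 792.3 in input. With a 3.67-fold difference it had the largest decrease of the genes called (-1.88 ± 0.34, adjusted p = 0.0101), a call lost without input replicate 2 (adjusted p = 0.0604) or input replicate 3 (adjusted p = 0.071). For sf3a2, an SF3A subunit, the values were 118.1, 112.8 and 102.6 in IP and 457.3, 249.9 and 249.5 in input (-1.43 ± 0.36, adjusted p = 0.042). The large SF3B subunits lay nearer 0. The branch point clamp gene sf3b1 was at -0.21 ± 0.29, sf3b2 at -0.33 ± 0.28 and sf3b3 (ENSDARG00000003969), the highest of the class, at 0.18 ± 0.35, with overlapping groups in each. Between them and the called genes were sf3b4 (-0.66 ± 0.29, adjusted p = 0.218) and sf3a3 (-0.90 ± 0.34, adjusted p = 0.147).

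Of 14 PRPF genes 1 (prpf8) was higher, 1 lower and 12 not called, with a median of -0.63. Of all genes 4.46% were higher and 1.86% lower. The U4/U6 gene prpf3 has 2 rows, of which ENSDARG00000086425 had 93.8, 15 and 67.6 in IP and 204, 186 and 186.1 in input. Its estimate, -1.94 ± 0.58, was the lowest of the 81 genes, and it was called with the replicate block (adjusted p = 0.0234) and by DESeq2 (adjusted p = 0.0256), but not by limma without the block (adjusted p = 0.0744). IP replicate 2 held only 4 reads of this row, and without that library the limma estimate was -1.23 (adjusted p = 0.0626). The other row, ENSDARG00000058430, was at -0.90 ± 0.40. The tri-snRNP gene prpf4 also has 2 rows, at 0.51 ± 0.35 and, for ENSDARG00000076717, with 64.6, 0 and 57.9 in IP and 86.3, 0 and 34.1 in input. The sources used here do not tell how reads were divided between rows of 1 symbol, so these values are uncertain. The tri-snRNP gene prpf31 was at -0.74 ± 0.26 (adjusted p = 0.114), with all IP values below input, while prpf38a (-0.01 ± 0.29), prpf38b (-0.17 ± 0.33) and prpf18 (-0.17 ± 0.35) lay near 0. Prp19, the ubiquitin ligase at the heart of a complex that activates the spliceosome, is listed as prp19 and lies outside the symbol pattern; it too was looked up after the values were seen. It had 7533.5, 4583.2 and 4449.5 in IP and 1857.2, 1987.7 and 1664.3 in input (1.55 ± 0.28, adjusted p = 0.0109), a call lost without any 1 input library (adjusted p of 0.0583 to 0.0824).

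The IP libraries did not rank alike in every class, a description with no test. Over the input mean, the SR median was -1.02, -0.65 and -1.46 on the log2 scale in IP replicates 1, 2 and 3, and that of the snRNP core genes -0.85, -0.47 and -1.04. For PRPF genes the medians were -0.15, -0.79 and -0.42, with IP replicate 2 the lowest, as it was for SF3 genes (-0.62, -0.74 and -0.49). The values of the PRPF4B kinase genes show a low IP replicate 2: prpf4ba had 1161.3, 124.1 and 1248.7 normalized counts in IP and 1217.2, 988 and 1194.5 in input, and prpf4bb had 934.7, 274.5 and 828.9 in IP and 1018.8, 1010 and 1136.6 in input. IP replicates 1 and 3 matched input in prpf4ba and IP replicate 2 alone was low, so that its estimate was -0.99 ± 0.81 with all libraries and 0.09 without IP replicate 2. The gene hnrnpua had the same shape, with 1549.8, 447.4 and 1101.5 in IP and 1543.4, 1251.1 and 1245.7 in input. The drop was not particular to PRPF genes. Outside the classes, srrm2 had 2303.1, 278.2 and 2819.5 in IP and 2062.3, 3461.6 and 3000 in input. Another such gene, ppig, had 1549.8, 131.6 and 1765.1 in IP and 970.6, 1311.4 and 1579.8 in input. In srsf1b, srsf5a and srsf9 the shallow IP replicate 2 was the highest IP library instead; its part in these values was not tested.

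**Figure D4:**
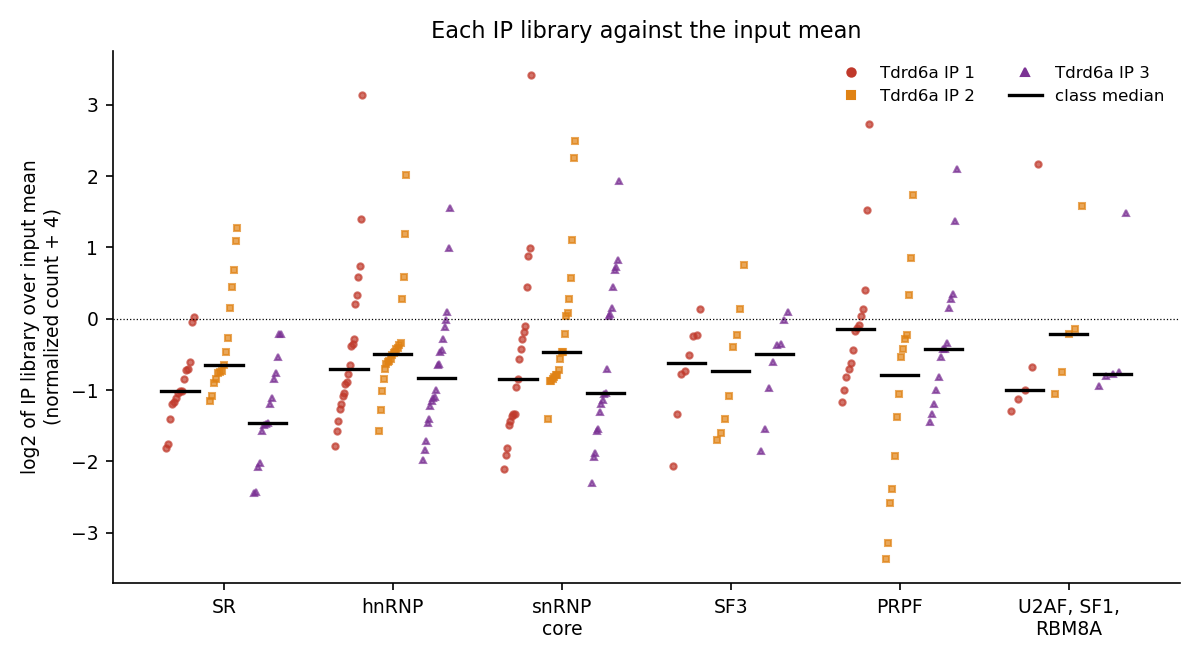
Log2 of each Tdrd6a IP library over the input mean (normalized count + 4) for the 81 tested splicing factor genes by class; each point is a gene in 1 library and the short lines are class medians. SR genes sit highest in IP replicate 2 (median -0.65) and lowest in IP replicate 3 (median -1.46). A drop below -2 in IP replicate 2 and in no other IP library is seen in 4 PRPF genes. Among these, the prpf4 row ENSDARG00000076717 was at 0 in both IP replicate 2 and input replicate 2. The prpf3 row ENSDARG00000086425 had 4 reads in IP replicate 2. Splicing genes outside these classes, such as srrm2 and ppig (not shown), also dropped below -2 only in IP replicate 2.

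As shares of all reads, SR genes took 0.0372%, 0.0592% and 0.0406% in IP replicates 1, 2 and 3, against 0.113%, 0.108% and 0.0872% in input replicates 1, 2 and 3. The hnRNP genes took 0.119 ± 0.0105% in IP and 0.208 ± 0.0285% in input (SD, n = 3 each), and in both classes the groups did not overlap. The PRPF share went the other way, with 0.259%, 0.142% and 0.242% in IP against 0.123%, 0.121% and 0.11% in input. The higher PRPF share rests on prpf8: without it the PRPF genes took 0.046 ± 0.0132% in IP and 0.0773 ± 0.00377% in input. Likewise the snRNP core share was 0.0669 ± 0.00191% in IP and 0.0746 ± 0.015% in input with snrnp40, and 0.0449 ± 0.00794% and 0.0705 ± 0.0134% without it. These shares are descriptions and were not tested.

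Other splicing genes were taken in 7 lists that leave out the genes chosen by symbol and hold 2 of the U5 genes above, ddx23 and txnl4a. Of 164 tested, 12 were lower, 7.32% against 1.86% of all genes, and 7 higher, 4.27% against 4.46%, and their median was -0.42. The higher share lay near that of all genes, so the higher genes named next are single calls. The helicases were the only one of the 7 lists with a median above 0, at 0.39, with 3 of 12 higher and 0 lower. Both ddx39a copies, for a UAP56-like export helicase, were higher, ddx39aa by 3.33-fold (1.74 ± 0.32, adjusted p = 0.0108) and ddx39ab by 2.16-fold (1.11 ± 0.28, adjusted p = 0.0431). The ddx39ab call was lost with edgeR (adjusted p = 0.0524) and with limma on scaling by library size alone (adjusted p = 0.0656). The related gene ddx39b, in the same list, was at 0.94 ± 0.53 with overlapping groups and was not called (adjusted p = 0.343). Also higher was eif4a3 (1.01 ± 0.26, adjusted p = 0.0469), the helicase that anchors the exon junction complex. It was the only call in the list of that complex, of 9 tested genes. The call was lost with limma on TMM scaling (adjusted p = 0.0521) or on scaling by library size alone (adjusted p = 0.105). The list leaned lower, with a median of -0.36 and 7 of 9 estimates below 0. Its lowest estimate was that of upf3b, at -2.2 without overlap (adjusted p = 0.0562). This gene had 150.1, 37.6 and 223.2 normalized counts in IP, lowest in the shallow IP replicate 2, and 386.7, 749.1 and 474.5 in input. With 1 library left out, the upf3b estimate ran from -2.7 to -1.48. The replicate block (adjusted p = 0.0373) and DESeq2 (adjusted p = 0.00322) called upf3b lower, and edgeR did not (adjusted p = 0.0581). Among 61 splicing regulators 3 were higher and 9 lower. The higher genes were raver1, for a cofactor of PTB (1.91 ± 0.46, adjusted p = 0.0365), celf2 (1.69 ± 0.41, adjusted p = 0.0358) and ilf3a (1.42 ± 0.34, adjusted p = 0.0331). The celf2 call was lost with limma on scaling by library size alone (adjusted p = 0.0747). The lower genes of smallest p were rbm4.3 (-1.51 ± 0.27, adjusted p = 0.01), cirbp, for a cold-inducible RNA-binding protein (-1.50 ± 0.31, adjusted p = 0.0179) and tia1, for a binder of uridine-rich RNA (-1.24 ± 0.27, adjusted p = 0.0216).

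Of 23 genes of the Prp19 and related complexes, a list without prp19 itself, which was higher, 0 were higher and 2 lower, bud31 (-1.84 ± 0.39, adjusted p = 0.0203) and bcas2 (-1.23 ± 0.31, adjusted p = 0.0404). Of 30 proteins associated with U2 or the tri-snRNP 1 was lower, sart1, which recruits the tri-snRNP (-1.57 ± 0.29, adjusted p = 0.0112). In snRNP biogenesis 1 of 13 was higher, snupn, the import adaptor of snRNPs (1.20 ± 0.28, adjusted p = 0.0297). With limma on scaling by library size alone the snupn call was lost (adjusted p = 0.0541). Of all genes 1.86% were lower and 4.46% higher. Of 18 SR kinases and SR-related proteins limma, edgeR and DESeq2 each called 0, and 1 had an unadjusted limma p under 0.05. Apart from the helicases, the list medians ran from -0.56 for the regulators to -0.19 for the SR kinases and SR-related proteins. Without input replicate 1, 2 or 3 at most 1 of these other splicing genes was called in either direction.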

How the data were processed

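The authors deposited a read-count signal, normalized counts with 1 decimal, for 21051 genes. Trizol extraction, a NuGEN Ovation RNA-seq kit and single-end reads of 50 bp are recorded per the labels' protocols. TopHat, DESeq and the Zv9 genome are listed, without versions, per the submitters' processing notes. Counter, annotation and strand use are not given in the sources used, so overlapping antisense genes cannot be told apart. Low values were whole multiples of the value of 1 read; at least 99.981% of values above 0 lay within 0.06 normalized counts of one, which gave the recovered reads.

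The test was limma 3.58.1 (trend, robust, R 4.3.3) on log2(normalized count + 4), two-sided, over 13265 genes with a mean of at least 10, with Benjamini-Hochberg adjustment over all of them and calls under 0.05. Fold changes on this scale understate those of low genes. edgeR 4.0.16, DESeq2 1.42.0 and voom were run on recovered reads; edgeR called 588 genes higher and 253 lower, limma 591 and 247. Same-numbered libraries deviated together (correlations of 0.294, 0.305 and 0.301 for replicates 1, 2 and 3), so the numbers may pair the libraries, which was not tested. Libraries of unlike number had correlations of -0.21 to -0.0704. Deviations were taken from group means, so values above 0 in some combinations go with values below 0 in others. The main fit took the libraries as unpaired, and the number entered only as a block in alternative fits. No 2 libraries of a group agreed within sampling noise.

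The genes and lists were chosen with earlier results of these data known. Named genes are all calls and, per class, the 3 of largest input mean, the 2 of smallest p, the extreme estimates and the paralogs of called genes; others, such as the U5 proteins, genes under other symbols and those quoted for single libraries, were chosen after their values were seen. Of 195 names in the other lists 175 were matched, 24 of them through the gene identifier table. The PRPF gene called lower is counted but not reported here. Python 3.11.15 with pandas 2.3.3 and matplotlib 3.10.9 was used for reads and figures.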

Additional observations from a re-analysis of the deposited data

How the results depend on the processing

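Main counts were 15 lower and 3 higher splicing factor genes, 12 and 7 other splicing genes, and 247 and 591 genes in all.
With the replicate number as a block, 21 splicing factor genes were lower and 5 higher, 21 other splicing genes were lower, and 467 genes in all were lower and 925 higher; edgeR with the block gave 23 and 5, 20 other splicing genes lower, and 449 genes in all lower.
DESeq2 gave 26 lower and 5 higher splicing factor genes, 27 other splicing genes lower, and 571 lower and 1061 higher genes in all.
With no filter beyond 1 read, 4 splicing factor genes were lower, 5 other splicing genes were lower and 1 higher, and 101 genes in all were lower; more genes are tested there.
Scaling by library size alone moved the median of all genes by -0.18; the splicing factor median relative to it was -0.66 with either scaling, the hnRNP median was -0.79 and the SF3 median -0.72, and 383 genes in all were lower and 3 other splicing genes higher.
Leaving out each library in turn gave 0 to 30 lower and 2 to 4 higher splicing factor genes, 0 to 27 lower and 0 to 10 higher other splicing genes, and 10 to 547 lower and 170 to 1185 higher genes in all.
A filter of 5 CPM, TMM scaling, edgeR, voom and pseudocounts of 1 or 16 kept all of these counts within 1.5 times.
Of the values recomputed for named genes 927 kept their side of the threshold, 41 newly passed it and 154 lost it, and 0 called values changed sign. The cause of these shifts was not tested. IP replicate 2 had the fewest reads, with a median of 96 per splicing factor gene.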
